A study of Mus musculus with 12 samples.

Results

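Direct target genes of the transcription factor p53 were followed in whole mammary tumors of mice treated with doxorubicin, anti-PD-1 or both. The genes were Cdkn1a, Mdm2, Ccng1, Eda2r, Aen, Phlda3, Bbc3, Bax, Trp53inp1 and Sesn2, taken by symbol because p53 is known to bind and activate them after DNA damage. They were chosen with earlier results of these data known, and all 10 were found among the 21960 genes listed for each tumor. Female C57BL/6 mice carried the polyoma middle T oncogene (PyMT) under the MMTV promoter, which drives tumors in the mammary epithelium, and RNA came from 12 tumors, 3 in each of 4 groups. Monotherapy with the control antibody (IgG1) or with anti-PD-1 began at a tumor diameter of 0.6 cm, with 20 mg/kg antibody and 10 mg/kg from then on. The doxorubicin groups (DOX/IgG1 and DOX/anti-PD-1) began at 1 cm and received 5 mg/kg doxorubicin weekly for 5 weeks, each time followed by 10 mg/kg of the antibody. The labels also give monotherapy antibody on days 0, 6, 12 and 18. The effect of doxorubicin therefore cannot be told apart from the larger tumor at the start, the lower first antibody dose and the schedule. The age of the mice was not given in the sources used here. Values are TPM, a unit scaled for gene length and library total that the authors deposited on a log2 scale after adding 1, and the read depth behind them is unknown. In the column headers, the 3 DOX/anti-PD-1 tumors end in another number than the other 9 tumors. What this number stands for is not given, and it cannot be told apart from the group.

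p53 is held at a low level by the ubiquitin ligase Mdm2 and is stabilized when DNA breaks activate the kinases Atm and Atr. It then switches on genes that stop the cell cycle, genes that promote apoptosis and genes that restrain its own activity, Mdm2 among them. Doxorubicin traps topoisomerase II on DNA and causes strand breaks, and in mammary epithelium p53 is a main barrier to the growth of damaged cells.

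Promoter sequences show which of the genes carry the letters that p53 is known to recognize close to their start. RefSeq windows (GRCm38.p6) of 300 bases, from 250 before to 50 after a transcription start, were found for 9 of the 10 genes, with 13 windows in all, and Trp53inp1 was not matched. The p53 half-site, a motif of 10 bases that reads the same on both strands, was searched without mismatch. It occurred in 6 of the 13 windows, which belong to 5 genes, and 8.36% of all 32851 windows hold it. A full site, made of a pair of half-sites up to 13 bases apart, was matched in full at Cdkn1a only among these genes, and 0.0731% of all windows hold such a match. With up to 1 mismatch it was also matched at Ccng1 and Bax, against 1.09% of all windows. Stretches before the start that hold half-sites of Cdkn1a, Mdm2, Ccng1 and Bax are chr17:29090866-29090977 on the plus strand, chr10:117710895-117710984 on the minus strand, chr11:40755422-40755511 on the minus strand and chr7:45467050-45467139 on the minus strand, shown here from 5′ to 3′ with the half-sites in capitals.
Cdkn1a promoter: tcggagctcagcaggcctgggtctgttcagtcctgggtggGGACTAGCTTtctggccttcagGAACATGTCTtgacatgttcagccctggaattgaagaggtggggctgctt
Mdm2 promoter: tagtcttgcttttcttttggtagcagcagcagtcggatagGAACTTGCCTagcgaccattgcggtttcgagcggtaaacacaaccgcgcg
Ccng1 promoter: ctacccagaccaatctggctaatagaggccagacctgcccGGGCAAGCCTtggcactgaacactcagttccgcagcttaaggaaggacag
Bax promoter: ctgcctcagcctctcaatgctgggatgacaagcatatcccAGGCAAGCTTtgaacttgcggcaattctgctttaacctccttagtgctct
The Cdkn1a stretch holds 2 half-sites, which begin 73 and 51 bases before the first of its 2 starts, and each of the other stretches holds 1. The window of the second Cdkn1a start (chr17:29093519-29093818) holds 0 half-sites, and its closest full site has 5 mismatches. The Aen half-site lies 121 bases before the second of its 2 starts but past the first, inside the gene, and its sequence is not shown. In the windows of Eda2r, Phlda3, Bbc3 and Sesn2 these letters were not found. A match is a description of the sequence and no measurement of binding.

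**Figure D1:**
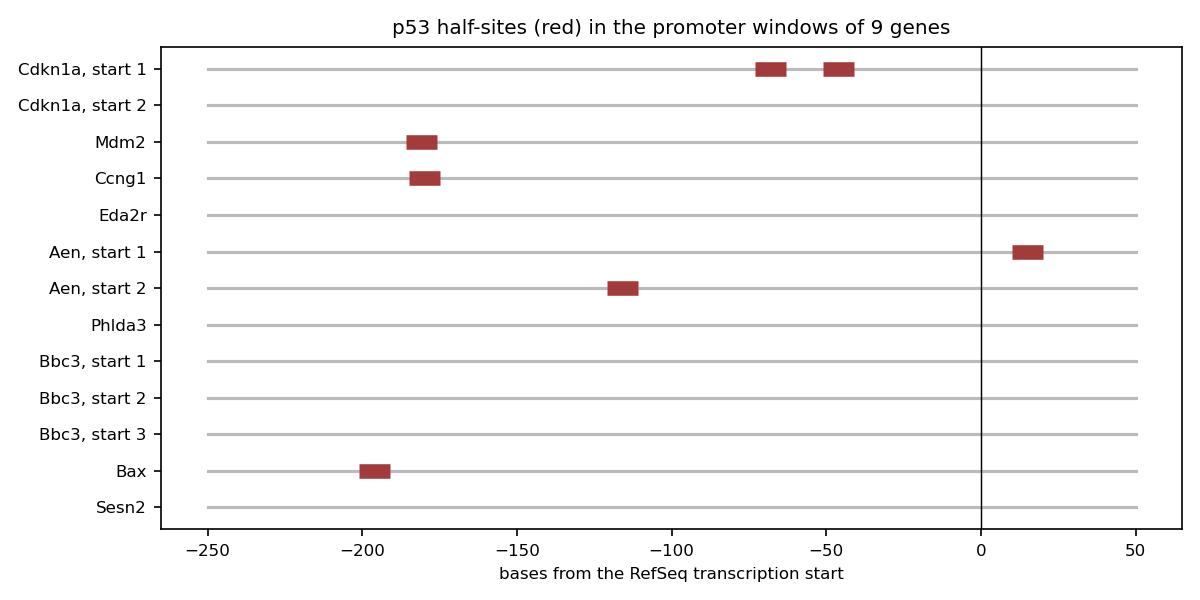
Position of p53 half-sites (red) in the 13 promoter windows of 9 p53 target genes, as bases from the RefSeq transcription start. Windows of 5 genes hold a half-site, and the first Cdkn1a window holds 2.

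Cdkn1a (ENSMUSG00000023067, chromosome 17, 29090976 to 29100727, mm10) encodes p21, the inhibitor of cyclin-dependent kinases through which p53 halts the cell cycle. It measured 15.2, 12.4 and 8.99 TPM under IgG1, 14.0, 10.7 and 29.3 TPM under anti-PD-1, 54.8, 36.4 and 29.65 TPM under DOX/IgG1 and 23.95, 13.7 and 67.6 TPM under DOX/anti-PD-1. All 3 DOX/IgG1 tumors lay above all 3 IgG1 tumors, while the DOX/anti-PD-1 tumors spread from below to above the anti-PD-1 tumor with the highest level and held the highest value of all 12. Mean levels were 40.3 ± 13.05 TPM (SD, n = 3 in each group) for DOX/IgG1, 35.1 ± 28.6 for the combination, 18.0 ± 9.91 for anti-PD-1 and 12.2 ± 3.09 for IgG1, and the SDs of the neighbors in this order overlap. The log2 fold change, computed on log2(TPM + 1), was 1.63 between DOX/IgG1 and IgG1 (95% interval 0.87 to 2.39) with a limma adjusted p of 0.453, and 0.75 in the anti-PD-1 arm (-0.52 to 2.01) with a limma adjusted p of 0.721. The latter was 0.13 without DOX/anti-PD-1 replicate 3, 0.46 without anti-PD-1 replicate 2, 1.14 without anti-PD-1 replicate 3 and 1.24 without DOX/anti-PD-1 replicate 2. The added 1 TPM makes fold changes of weakly expressed genes smaller. In whole tumors, a change in the share of a cell type and a change in RNA per cell cannot be told apart. A gene model of uncertain status on the opposite strand overlaps Cdkn1a, and whether strand was used in the counting is not given.

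Ccng1 (ENSMUSG00000020326, chromosome 11, 40748552 to 40755311) encodes cyclin G1, which recruits a phosphatase to Mdm2. Its levels were 40.3, 62.75 and 66.0 TPM under IgG1, 83.8, 53.7 and 83.2 TPM under anti-PD-1, 167, 132 and 125 TPM under DOX/IgG1 and 86.0, 41.5 and 97.1 TPM under DOX/anti-PD-1. The DOX/IgG1 tumors stood above every one of the other 9 tumors, and the DOX/anti-PD-1 tumors overlapped both groups without doxorubicin. The mean was 141 ± 22.3 TPM for DOX/IgG1, then 74.8 ± 29.4 for DOX/anti-PD-1, 73.5 ± 17.2 for anti-PD-1 and 56.3 ± 14.0 for IgG1, and only the first stood apart from its neighbor by more than the SDs. The log2 fold change against IgG1 was 1.33 for DOX/IgG1 (0.73 to 1.93, limma adjusted p = 0.432), and against anti-PD-1 it was -0.04 for DOX/anti-PD-1 (-0.81 to 0.74, limma adjusted p = 0.987), with values from -0.27 to 0.34 when 1 tumor was left out.

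Mdm2 (ENSMUSG00000020184, chromosome 10, 117688875 to 117710758) closes the feedback loop by marking p53 for degradation. Tumors had 42.1, 85.45 and 89.6 TPM after IgG1, 109.8, 62.1 and 57.6 TPM after anti-PD-1, 168, 78.8 and 92.3 TPM after DOX/IgG1, and 78.4, 53.5 and 138 TPM after DOX/anti-PD-1. All 4 groups overlapped, and 1 tumor in each doxorubicin arm, replicate 1 of DOX/IgG1 and replicate 3 of DOX/anti-PD-1, exceeded all tumors without doxorubicin. Means ran from 113 ± 48.1 TPM (DOX/IgG1) over 89.9 ± 43.3 (the combination) and 76.5 ± 28.9 (anti-PD-1) to 72.4 ± 26.3 (IgG1), within their SDs. The log2 fold changes with doxorubicin were 0.63 (standard error 0.38) in the IgG1 arm and 0.18 (standard error 0.38) in the anti-PD-1 arm. The first was 0.29 without IgG1 replicate 1 and 0.31 without DOX/IgG1 replicate 1, and the second ran from -0.17 to 0.50 when 1 tumor was left out.

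Phlda3 (ENSMUSG00000041801, chromosome 1, 135766119 to 135769136) encodes a small protein that competes with Akt for membrane lipids and so dampens survival signals. It was measured at 12.2, 11.8 and 13.3 TPM under IgG1, 9.22, 8.86 and 8.37 TPM under anti-PD-1, 32.0, 27.2 and 17.85 TPM under DOX/IgG1 and 22.4, 11.9 and 42.7 TPM under DOX/anti-PD-1. In both antibody arms the 3 tumors with doxorubicin lay above the 3 without it, and the tight anti-PD-1 group lay below the tight IgG1 group. The log2 fold change was 0.95 (0.24 to 1.67, limma adjusted p = 0.547) in the IgG1 arm and 1.27 (0.30 to 2.23, limma adjusted p = 0.504) in the anti-PD-1 arm, where it was 0.82 without DOX/anti-PD-1 replicate 3. The doxorubicin means were 25.7 ± 15.7 TPM (DOX/anti-PD-1) and 25.7 ± 7.18 (DOX/IgG1), above 12.4 ± 0.792 (IgG1) and 8.82 ± 0.427 (anti-PD-1). Among the 10 genes, Phlda3 was the one whose groups parted in both arms.

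Sesn2 (ENSMUSG00000028893, chromosome 4, 132492032 to 132510501) encodes sestrin 2, a stress protein that restrains mTORC1. The tumors reached 3.76, 2.57 and 3.55 TPM with IgG1, 3.69, 3.55 and 6.38 TPM with anti-PD-1, 16.6, 6.39 and 6.58 TPM with DOX/IgG1 and 3.69, 6.80 and 9.58 TPM with DOX/anti-PD-1. DOX/IgG1 tumors were all above IgG1 tumors, though only replicate 1 stood far off, and DOX/anti-PD-1 overlapped anti-PD-1. Its means lay in the order DOX/IgG1 (9.87 ± 5.86 TPM), DOX/anti-PD-1 (6.69 ± 2.95), anti-PD-1 (4.54 ± 1.60) and IgG1 (3.29 ± 0.635), and the SDs of neighbors overlap. The log2 fold changes were 1.23 (0.17 to 2.28) and 0.43 (-0.54 to 1.41). Without DOX/IgG1 replicate 1 the first was 0.81, and the second was 0.16 without DOX/anti-PD-1 replicate 3, 0.66 without anti-PD-1 replicate 3 and 0.75 without DOX/anti-PD-1 replicate 1.

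Trp53inp1 (ENSMUSG00000028211, chromosome 4, 11156431 to 11174379), whose product takes part in autophagy and apoptosis downstream of p53, had the largest log2 difference between the doxorubicin arms. It stood at 59.3, 103 and 115 TPM under IgG1, 147, 118 and 175 TPM under anti-PD-1, 196, 210 and 151 TPM under DOX/IgG1 and 48.5, 65.85 and 151 TPM under DOX/anti-PD-1. Both anti-PD-1 alone and DOX/IgG1 lay wholly above IgG1, whereas 2 of 3 DOX/anti-PD-1 tumors lay below every anti-PD-1 and DOX/IgG1 tumor. Replicate 3 of DOX/anti-PD-1 (151.47 TPM) just exceeded replicate 3 of DOX/IgG1 (151.24 TPM). Mean levels were 186 ± 30.8 TPM for DOX/IgG1, 147 ± 28.6 for anti-PD-1, 92.3 ± 29.2 for IgG1 and 88.6 ± 55.1 for DOX/anti-PD-1, with the SDs of neighbors overlapping. The log2 fold change was 1.04 (0.38 to 1.71, limma adjusted p = 0.479) in the IgG1 arm and -0.87 (-1.75 to 0.00, limma adjusted p = 0.579) in the anti-PD-1 arm, where it was -0.53 without DOX/anti-PD-1 replicate 1 and -1.34 without replicate 3.

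Eda2r (ENSMUSG00000034457, chromosome X, 97333840 to 97377216) encodes a TNF receptor superfamily member that binds ectodysplasin A2. Its levels reached 2.94, 4.81 and 9.59 TPM under IgG1, 4.60, 2.94 and 10.2 TPM under anti-PD-1, 34.4, 10.1 and 10.5 TPM under DOX/IgG1 and 5.09, 8.19 and 16.2 TPM under DOX/anti-PD-1. The DOX/IgG1 tumors were above the IgG1 tumors, with replicates 2 and 3 by less than 1 TPM over the highest of them, and the anti-PD-1 arm overlapped. The mean was 18.3 ± 13.9 TPM for DOX/IgG1, 9.81 ± 5.71 for DOX/anti-PD-1, 5.91 ± 3.79 for anti-PD-1 and 5.78 ± 3.43 for IgG1, and the SDs of neighbors overlap. The log2 fold changes were 1.41 (0.13 to 2.69) and 0.65 (-0.51 to 1.82). Without DOX/IgG1 replicate 1 the first was 0.86, and the second was 0.25 without DOX/anti-PD-1 replicate 3, 0.32 without anti-PD-1 replicate 2, 1.00 without DOX/anti-PD-1 replicate 1 and 1.07 without anti-PD-1 replicate 3.

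Aen (ENSMUSG00000030609, chromosome 7, 78895854 to 78911209), an exonuclease that fragments DNA during apoptosis, showed 16.6, 20.4 and 23.45 TPM under IgG1, 31.2, 18.05 and 12.85 TPM under anti-PD-1, 60.25, 16.5 and 38.15 TPM under DOX/IgG1 and 11.7, 15.2 and 32.1 TPM under DOX/anti-PD-1. All groups overlapped, and DOX/IgG1 replicate 2 had less than any IgG1 tumor while replicates 1 and 3 had more than all tumors without doxorubicin. The mean was 38.3 ± 21.9 TPM for DOX/IgG1, against 20.7 ± 9.46 for anti-PD-1, 20.1 ± 3.43 for IgG1 and 19.7 ± 10.9 for DOX/anti-PD-1. Its log2 fold changes were 0.73 (-0.27 to 1.73) in the IgG1 arm and -0.11 (-1.09 to 0.88) in the anti-PD-1 arm. The first was 0.32 without DOX/IgG1 replicate 1 and 1.22 without replicate 2, and the second ran from -0.51 to 0.22 when 1 tumor was left out.

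Bax and Bbc3 belong to the BCL-2 family. Bax (ENSMUSG00000003873, chromosome 7, 45461697 to 45466898), which permeabilizes mitochondria, had 49.8, 40.85 and 29.7 TPM under IgG1, 33.3, 12.1 and 29.3 TPM under anti-PD-1, 69.5, 25.5 and 35.3 TPM under DOX/IgG1 and 15.95, 28.7 and 45.8 TPM under DOX/anti-PD-1. Bbc3 (ENSMUSG00000002083, chromosome 7, 16308393 to 16318205) encodes PUMA, which activates Bax, and had 8.87, 4.73 and 6.18 TPM under IgG1, 7.63, 2.99 and 7.58 TPM under anti-PD-1, 10.89, 10.96 and 3.61 TPM under DOX/IgG1 and 11.2, 3.98 and 7.91 TPM under DOX/anti-PD-1. Mean Bax was 43.4 ± 23.1 TPM in DOX/IgG1, 40.1 ± 10.1 in IgG1, 30.1 ± 15.0 in DOX/anti-PD-1 and 24.9 ± 11.3 in anti-PD-1, and mean Bbc3 was 8.49 ± 4.22, 6.59 ± 2.10, 7.70 ± 3.61 and 6.07 ± 2.66 in the same groups, with overlapping SDs. For both genes the doxorubicin tumors overlapped the tumors without it in each arm. The log2 fold changes of Bax were 0.02 (-0.86 to 0.89) and 0.26 (-0.78 to 1.30), and the first became -0.10 after rescaling by the median of ratios. Those of Bbc3 were 0.23 (-0.87 to 1.33) and 0.29 (-0.78 to 1.36), and for both genes these values turned sign in both arms when single tumors were left out. Another annotated gene on the same strand, Gm45808, shares exons with Bax, so reads of this pair could have been split and the level of Bax is uncertain.

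**Figure D2:**
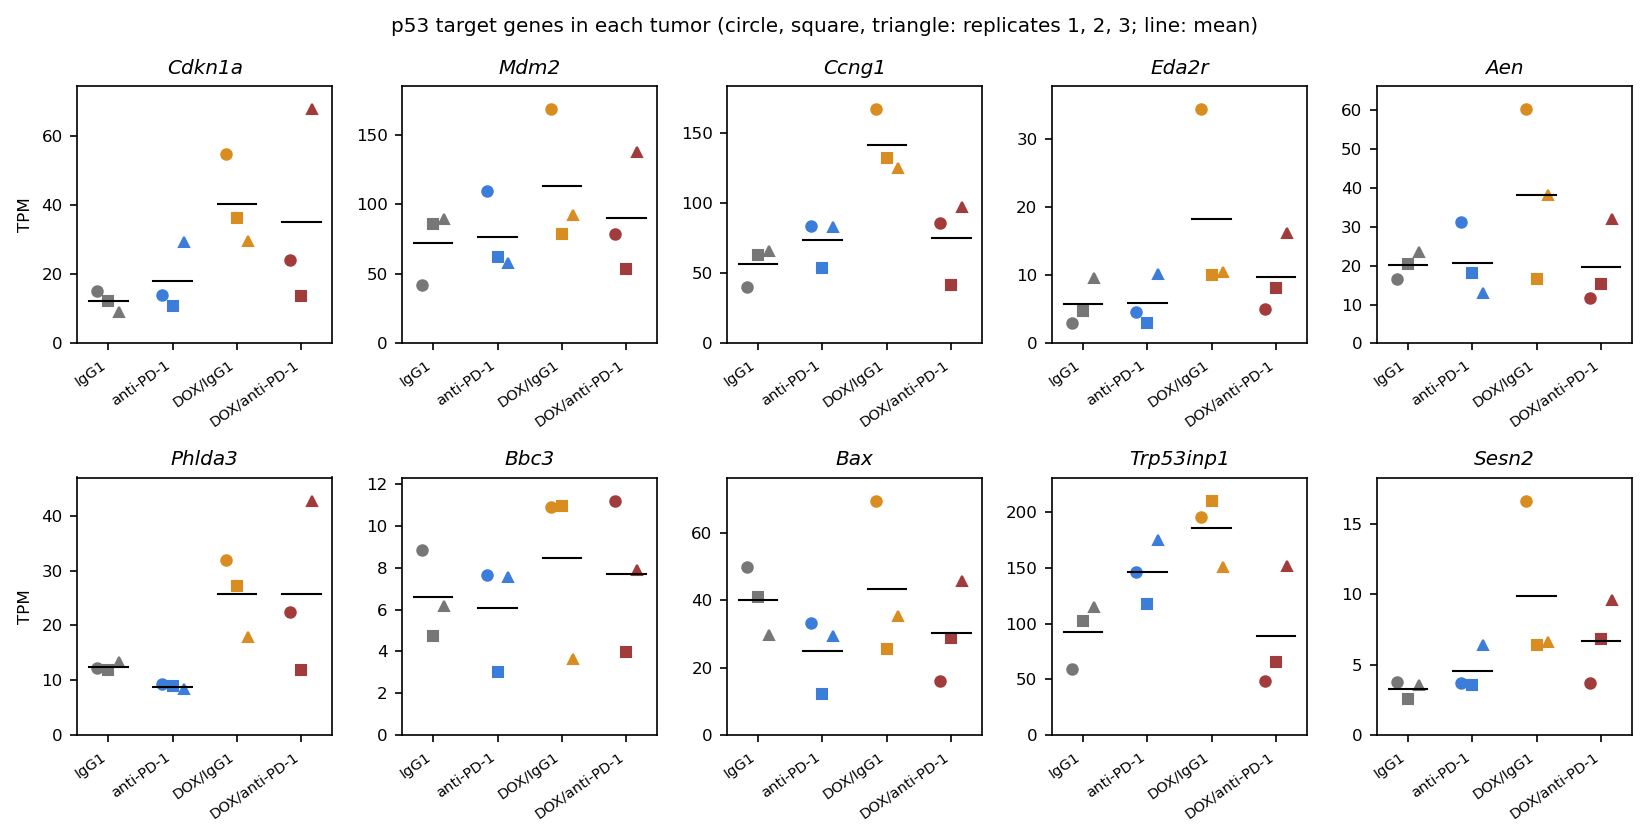
TPM of the 10 p53 target genes in each of 12 tumors by treatment group, with a line at each group mean of 3 tumors and each axis starting at 0. Ccng1 in DOX/IgG1 tumors (125 to 167 TPM) lies above all other groups, and DOX/IgG1 replicate 1 and DOX/anti-PD-1 replicate 3 are the high tumors of most genes.

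DOX/IgG1 and IgG1 are the 2 groups without checkpoint blockade, and they also differ in starting tumor size, first antibody dose and schedule. Cdkn1a, Ccng1, Phlda3, Sesn2, Trp53inp1 and Eda2r were higher in all 3 DOX/IgG1 tumors than in any IgG1 tumor. These 6 of 10 genes compare with 9.31% of the 13874 genes tested whose groups did not overlap and were higher, and with 4.64% that were lower, where none of the 10 stood. For each of the 6, a two-sided exact permutation test gave p = 0.1, and with 3 tumors per group it cannot go lower. With limma, 0 of the 10 passed an adjusted p below 0.1 with an absolute log2 fold change above 1, against 5 genes (0.0360%) of all tested (Smr3a and Bpifa2, both at 0 in all IgG1 tumors, and Saa1, Saa2 and Hist1h2af). That number was 122 without DOX/IgG1 replicate 1, 2 without DOX/IgG1 replicate 2 and 0 without any 1 of the other 4 tumors. At an unadjusted limma p below 0.05, 6 of 10 were higher (5.03% of all genes) and 0 were lower (2.70%). Without DOX/IgG1 replicate 1, 4 of 10 were higher at that limit (Ccng1, Cdkn1a, Trp53inp1 and Phlda3), against 9.1% of all genes. The 6 genes named above were then still apart and higher, against 22.2% of all genes. Without DOX/IgG1 replicate 2, 6 of 10 were higher at that limit (3.34%), and 8 of 10 were apart and higher (14%). The median log2 fold change of the 10 genes was 1.00, and that of all tested genes was 0.12. Rescaling by the median of ratios moved the latter to 0.01. Bax moved from 0.02 to -0.10 with it, and the median of the 10 genes after it is not given here. After it 6 of the 10 genes did not overlap, a count for which the share of all genes is not given here. At an unadjusted limma p below 0.05, 6 of 10 were then higher, against 3.82% of all genes, and 0 were lower (4.25%).

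When doxorubicin was added to anti-PD-1, Phlda3 alone of the 10 genes had groups that did not overlap, on the higher side (11.1% of 13736 genes), and 0 lay on the lower side (3.84%). Limma called 0 of the 10 and 0% of all genes (4 genes without DOX/anti-PD-1 replicate 2, and 1 without anti-PD-1 replicate 1, DOX/anti-PD-1 replicate 1 or DOX/anti-PD-1 replicate 3). At an unadjusted limma p below 0.05, 1 of 10, Phlda3, was higher (6.30%) and 0 were lower (2.33%), a share near that of all genes. Trp53inp1 was also lower at that limit after the rescaling (4.19% of all genes lower), with all 12 tumors in one fit (2.24%) and without DOX/anti-PD-1 replicate 3 (1.99%), where Phlda3 did not pass. The median log2 fold change of the 10 genes was 0.28 and that of all genes 0.11. The rescaling moved the median of all genes to -0.01, and that of the 10 genes after it is not given here. Before it, the median of the 10 genes leaned on DOX/anti-PD-1 replicate 3. Without that tumor, fold changes ran from -1.34 (Trp53inp1) to 0.82 (Phlda3), with Cdkn1a at 0.13, Mdm2 at -0.17 and Ccng1 at -0.27. Without DOX/anti-PD-1 replicate 2, the lowest of its group for 5 genes, 3 of the 10 were apart and higher (Bbc3, Ccng1 and Phlda3), against 16.4% of all genes, and 2 were higher at an unadjusted limma p below 0.05 (Cdkn1a and Phlda3; 5.83%). Without anti-PD-1 replicate 3 or DOX/anti-PD-1 replicate 1 it was 2 of 10 higher (16.5% and 21.4% of all genes), near the background, and without DOX/anti-PD-1 replicate 3, Trp53inp1 was apart on the lower side (6.71%).

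The 2 doxorubicin arms were then compared directly. All 3 DOX/anti-PD-1 tumors had less Ccng1 than any DOX/IgG1 tumor, a log2 fold change of -0.99 (-1.75 to -0.22) with a limma adjusted p of 0.988 and an exact permutation p of 0.1. Trp53inp1 differed by -1.22 (-2.12 to -0.32) with a limma adjusted p of 0.988 and an exact permutation p of 0.2, since 1 tumor crossed over. The remaining 8 genes had log2 fold changes between -0.88 (Aen) and -0.09 (Bbc3), all with intervals that include 0, and each of these 8 intervals reaches below -1. Lower values without overlap were found in 1 of 10 genes (5.95% of 13946) and higher values in 0 (4.27%). Limma called 0 of 10 (0% of all genes; 4 genes without DOX/IgG1 replicate 1 and 1 without DOX/anti-PD-1 replicate 3), with 2 of 10 lower at an unadjusted p below 0.05 (2.89%) and 0 higher (1.81%). The median log2 fold change was -0.48 for the 10 genes and -0.04 for all genes. The former leaned on single tumors. Several of its 10 values lay near 0 without DOX/IgG1 replicate 1 and further below 0 without DOX/anti-PD-1 replicate 3. This comparison leaned on DOX/anti-PD-1 replicate 3 and on DOX/IgG1 replicate 1. Without DOX/anti-PD-1 replicate 3, 6 of 10 genes were lower without overlap (Mdm2, Ccng1, Cdkn1a, Trp53inp1, Aen and Eda2r), against 11.6% of all genes, and 4 of 10 were lower at an unadjusted limma p below 0.05 (3.05%). That number was 1 of 10 (Ccng1) without DOX/anti-PD-1 replicate 1 (2.25%) or replicate 2 (3.30%), and without the latter the log2 fold change of Ccng1 was -0.61. Without DOX/IgG1 replicate 2 or 3, 2 of 10 were apart and lower, against 9.63% and 9.83% of all genes. Without DOX/IgG1 replicate 1 it was 1 of 10, Ccng1, against 15.7%. Log2 fold changes were then -0.03 for Mdm2, -0.04 for Sesn2, -0.11 for Bax, -0.20 for Eda2r and -0.47 for Aen. Ccng1 and Trp53inp1 were still lower at an unadjusted limma p below 0.05 (5.03% of all genes).

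**Figure D3:**
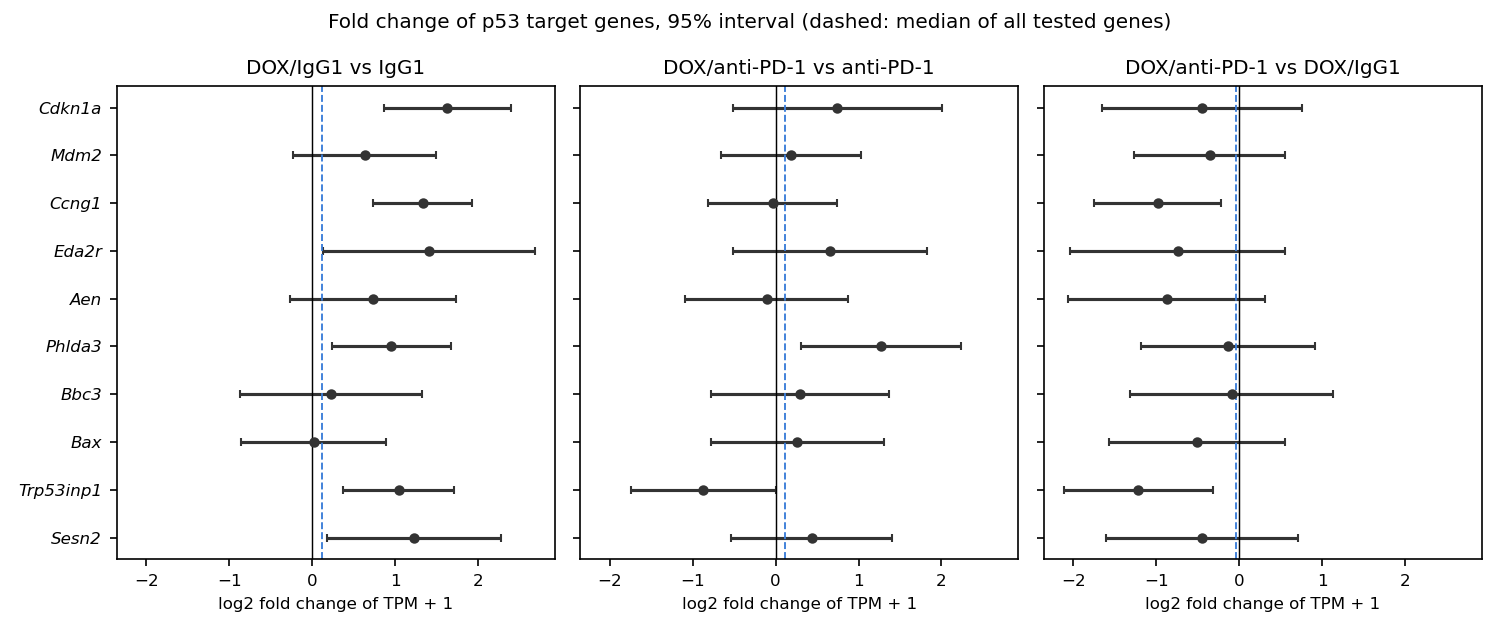
Log2 fold change of TPM + 1 for the 10 genes with 95% intervals from limma, 3 tumors against 3 in each panel, with the median of all tested genes dashed. The median of the 10 genes is 1.00 in the first panel, 0.28 in the second and -0.48 in the third. The second leans on DOX/anti-PD-1 replicate 3, and the third on that tumor and on DOX/IgG1 replicate 1. Without DOX/IgG1 replicate 1, values of the first panel are 0.86 for Eda2r, 0.81 for Sesn2, 0.32 for Aen and -0.38 for Bax, with Cdkn1a at 1.39.

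Whether the change with doxorubicin depended on the antibody was tested as an interaction over all 12 tumors. The interaction was -1.92 for Trp53inp1 (-3.04 to -0.79) and -1.37 for Ccng1 (-2.35 to -0.38), each with a limma adjusted p of 0.993. These 2 of 10 genes were lower at an unadjusted limma p below 0.05, against 2.45% of 14735 genes, and 0 were higher (2.26%). None of the 10 was called, and 1 gene was (0.00679%), Bpifa2, which is at 0 outside DOX/IgG1. Leaving out any 1 tumor gave 0 called genes, except 1 without DOX/IgG1 replicate 1 and 1 without DOX/anti-PD-1 replicate 3. For the other 8 genes the interaction lay between -0.88 (Cdkn1a) and 0.31 (Phlda3), with intervals that include 0.

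Over both antibodies, 6 tumors with doxorubicin were set against 6 without, with the antibody as a covariate. Phlda3 had a log2 fold change of 1.11 (0.54 to 1.69, limma adjusted p = 0.196), Cdkn1a of 1.19 (0.41 to 1.96, limma adjusted p = 0.240), Eda2r of 1.03 (0.16 to 1.90), Sesn2 of 0.83 (0.14 to 1.52) and Ccng1 of 0.65 (0.04 to 1.25). A two-sided exact permutation test within each antibody gave p = 0.005 for Phlda3, the smallest that 400 assignments allow, 0.03 for Cdkn1a, 0.02 for Sesn2, 0.05 for Eda2r and 0.085 for Ccng1. At an unadjusted limma p below 0.05, 5 of 10 genes were higher (8.82% of all genes) and 0 were lower (3.16%). None of the 10 was called, against 3 of 14735 genes (0.0204%; Gas6, St3gal4 and Col27a1), a number that was 212 without DOX/IgG1 replicate 1, 27 without DOX/anti-PD-1 replicate 2, 6 without DOX/anti-PD-1 replicate 1, 5 without anti-PD-1 replicate 3, 1 without DOX/anti-PD-1 replicate 3 and 0 without IgG1 replicate 2, IgG1 replicate 3, anti-PD-1 replicate 1 or DOX/IgG1 replicate 3. Leaving out DOX/anti-PD-1 replicate 2 brought Phlda3 to a log2 fold change of 1.29 with a limma adjusted p of 0.0905, past the limit, over a range of 0.0905 to 0.327 for all alternatives tried. Without DOX/IgG1 replicate 1, 2 of 10 genes were higher at an unadjusted limma p below 0.05 (11.3% of all genes), and without IgG1 replicate 1, IgG1 replicate 2, anti-PD-1 replicate 2 or DOX/anti-PD-1 replicate 3 it was 3 (6.87%, 7.91%, 7.23% and 7.43%). Trp53inp1, with opposite signs in the arms, averaged to 0.09, and to -0.04 after rescaling by the median of ratios.

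Anti-PD-1 alone was compared with IgG1 to see the genes without the drug. Trp53inp1 was higher in all 3 anti-PD-1 tumors (0.70, 0.05 to 1.35, limma adjusted p = 0.996) and Phlda3 lower in all 3 (-0.45, -1.09 to 0.19). Among 13692 genes, 3.64% were apart and higher and 6.24% apart and lower, so 1 of 10 in each direction is near the background. Limma called 0 of 10 (0%; 4 genes without IgG1 replicate 1, 2 without IgG1 replicate 2 and 1 without anti-PD-1 replicate 2), and at an unadjusted p below 0.05 it gave 1 of 10 higher (1.75%) and 0 lower (2.85%). With no trend, with all 12 tumors in one fit, or without IgG1 replicate 1 or anti-PD-1 replicate 3, 0 of 10 genes had such a p, and without anti-PD-1 replicate 1 it was Bax alone, on the lower side (3.35%). The value of Trp53inp1 was 0.41 without IgG1 replicate 1.

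Some tumors had high or low values for most of the genes. DOX/IgG1 replicate 1 held the highest value of its group for 8 of 10 genes and of all 12 tumors for 6, and DOX/anti-PD-1 replicate 3 held the highest of its group for 9. In both of these tumors all 10 genes were above their mean over 12 tumors, by a median of 1.09 and 0.63 on the log2 scale, where the median of all tested genes was 0.02 in each. At the other end, the median was -0.66 in anti-PD-1 replicate 2 (-0.08 for all tested genes), -0.56 in DOX/anti-PD-1 replicate 2 (0.15 for all) and -0.46 in IgG1 replicate 1 (-0.23 for all). DOX/IgG1 replicate 1 also had the most listed genes at 0 of all 12 tumors (8104) and the lowest sum of fibroblast markers (540 TPM). A link of these to its p53 target values was not tested. Pearson r of log2(TPM + 1) over 12 tumors was above 0 in all 45 pairs of genes, with a median of 0.55. After the group means were subtracted it was above 0 in 44 of 45, with a median of 0.53 and a lowest value of -0.10. Eda2r and Sesn2 were most alike (r = 0.90), and Aen and Bbc3 least (r = 0.01). These values describe tumors that share treatments and carry no test. Pairs drawn from all genes were not correlated, so there is no background to set these values against.

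**Figure D4:**
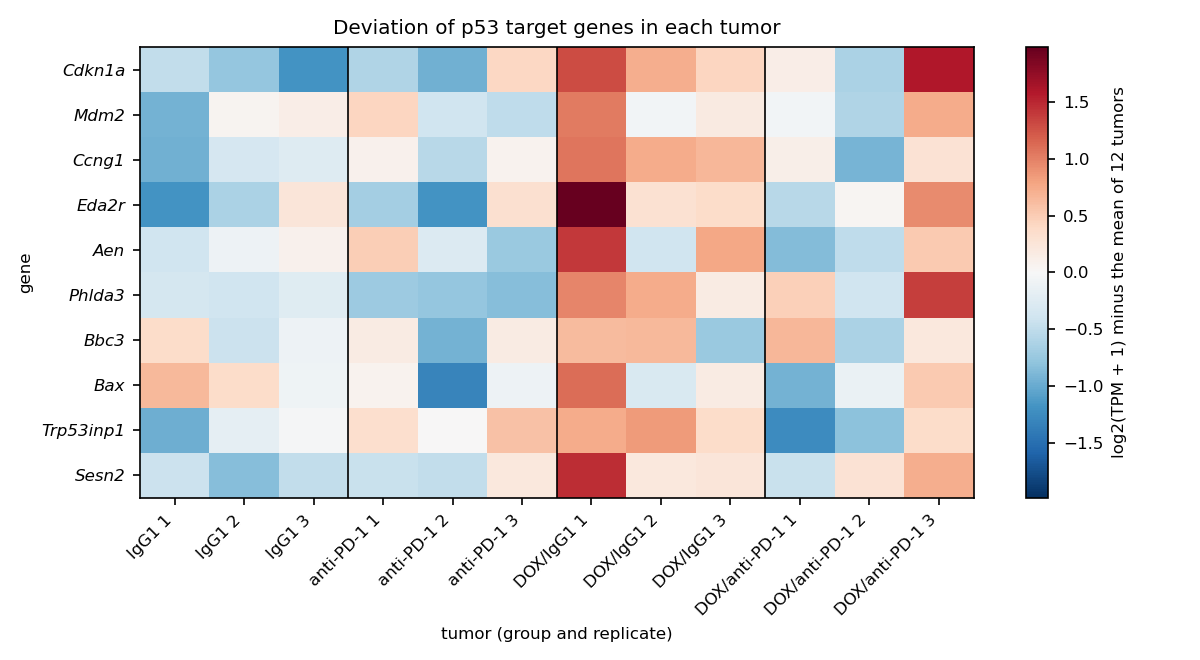
Log2(TPM + 1) of each of the 10 genes in each of 12 tumors minus the gene's mean over the tumors, from low (blue) to high (red). DOX/IgG1 replicate 1 and DOX/anti-PD-1 replicate 3 are above the mean in all 10 genes.

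Among 13637 other genes at 1 TPM or more in at least 6 tumors, those most like Cdkn1a were Rgl2 (r = 0.84), Ica1l (r = 0.84) and Fam131a (r = 0.83). Most like Mdm2 were Iws1 (r = 0.93), Ercc5 (r = 0.93) and Dnali1 (r = 0.92), of which Ercc5, a repair endonuclease, is itself a listed p53 target. Most like Ccng1 were Eya4 (r = 0.93), Ppcdc (r = 0.89) and Snx22 (r = 0.89). Each r is over 12 tumors.

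p53 itself and the genes that regulate it were read next. Trp53 measured 23.8, 31.9 and 24.3 TPM under IgG1, 10.9, 15.6 and 17.5 TPM under anti-PD-1, 25.4, 19.3 and 20.3 TPM under DOX/IgG1 and 18.9, 27.0 and 35.7 TPM under DOX/anti-PD-1. Anti-PD-1 tumors lay below all other groups, and the others overlapped. Of 15 genes tested among p53 and its regulators, 0 were higher and 1, the checkpoint kinase Chek1, was lower over both antibodies at an unadjusted limma p below 0.05 (log2 fold change -0.97; 8.82% of all genes were higher and 3.16% lower), with a list median of 0.08 where all genes had 0.12. Cdkn2a (-0.74), Trp63 (0.45), Mdm4 (0.26) and Ppm1d (0.05) had intervals over both antibodies that include 0. By arm, Cdkn2a had a log2 fold change with doxorubicin of 0.33 (-1.38 to 2.04, limma adjusted p = 0.935) beside IgG1 and of -1.81 (-3.14 to -0.48, limma adjusted p = 0.504) beside anti-PD-1, where its groups did not overlap. Trp53 had -0.28 (-0.91 to 0.34, limma adjusted p = 0.826) beside IgG1 and 0.83 (0.10 to 1.56, limma adjusted p = 0.533) beside anti-PD-1, where the doxorubicin tumors were all higher. At an unadjusted limma p below 0.05, 1 of 15 was higher and 1 lower in each arm, near the background of all genes (5.03% higher and 2.70% lower beside IgG1, 6.30% and 2.33% beside anti-PD-1). Cdkn2a was listed at 0 in DOX/anti-PD-1 replicate 1.

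Further p53 targets were taken from lists by function. For arrest and growth, 3 of 10 tested genes were higher at an unadjusted limma p below 0.05, namely Zmat3 (log2 fold change 0.96), the kinase Plk2 (0.82) and Btg2 (0.55), and 0 were lower, with a median of 0.36. For death, 3 of 13 were higher, Pidd1 (1.17), Trp53i13 (0.99) and Ckap2 (0.66), and 0 lower, with a median of 0.08. For repair and metabolism, 4 of 15 were higher, among them the adenylate kinase Ak1 (1.38), Dcxr (1.05) and Pltp (0.82), and 0 lower, with a median of 0.36. By arm, the numbers higher were 3 of 9 (arrest and growth), 0 of 13 (death) and 4 of 15 (repair and metabolism) beside IgG1, against 5.03% of 13874 genes. Beside anti-PD-1 they were 0 of 9, 3 of 13 and 3 of 15, against 6.30% of 13736 genes, and 1 of the 13 was lower (2.33%). Over both antibodies, against these stand 1300 of 14735 genes higher and 465 lower, and none of the listed genes passed limma's adjusted limit.

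Cell cycle genes known to be repressed through p21 and the DREAM complex were the counterpart. Over both antibodies 0 of 24 were higher and 2 lower at an unadjusted limma p below 0.05, Mki67 (-0.84) and Top2a (-0.66), against 8.82% and 3.16% of all genes, with Birc5 at -0.66 and a median of -0.19. Beside IgG1, 2 of 24 were lower at that limit, Birc5 (-1.62) and Plk1 (-0.95), against 2.70% of all genes, and beside anti-PD-1 0 were (2.33%). The median was -0.40 with doxorubicin in the IgG1 arm, 0.15 in the anti-PD-1 arm, and 0.65 for the combination relative to DOX/IgG1, where 1 of 24 was higher at that limit (1.81% of all genes). These comparisons share tumors and are given side by side only.

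**Figure D5:**
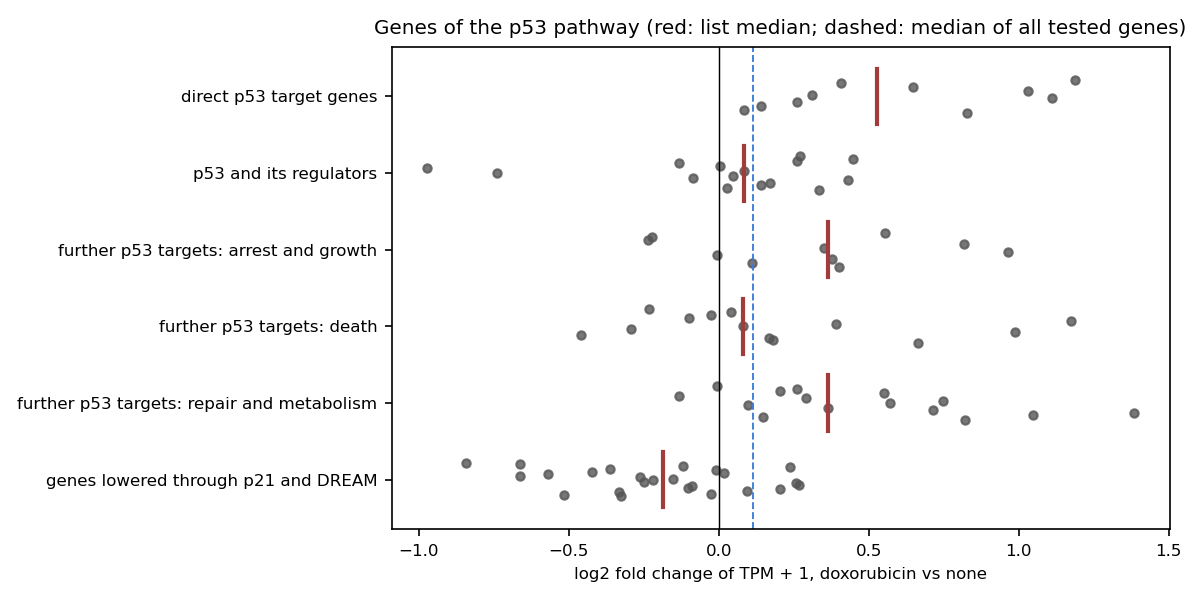
Log2 fold change of TPM + 1 with doxorubicin over both antibodies for each tested gene of 6 p53 pathway lists, with list medians in red and the median of all tested genes dashed. The median is 0.53 for the 10 direct targets and -0.19 for the genes repressed through p21.

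Markers of tissue types were read in the same tumors, because the p53 targets were measured in whole tissue. Epithelial markers (8 of 8 found, none at 0, Epcam the most abundant on average) summed to 3993, 2847 and 3475 TPM with IgG1, 3144, 2465 and 2681 TPM with anti-PD-1, 2374, 3399 and 3873 TPM with DOX/IgG1, and 3341, 3148 and 2436 TPM with DOX/anti-PD-1. Over both antibodies Epcam (-0.54) and Cldn7 (-0.49) were lower and Krt19 (0.82) higher at an unadjusted limma p below 0.05. Adipocyte markers (8 of 8, Cfd the most abundant, Lep at 0 in IgG1 replicate 1) summed to 212, 1038 and 189 TPM in DOX/IgG1, 962, 343 and 296 TPM in DOX/anti-PD-1, 128, 375 and 321 TPM in IgG1 and 183, 134 and 205 TPM under anti-PD-1, and Fabp4 (1.42), Plin4 (1.35) and Adipoq (1.03) had the largest log2 fold changes of the list.

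Fibroblast markers (8 of 8, Col1a1 the most abundant) summed to 1223, 1164 and 1821 TPM with IgG1, 945, 860 and 710 TPM with anti-PD-1, 540, 1874 and 1313 TPM with DOX/IgG1, and 1092, 1437 and 1609 TPM with DOX/anti-PD-1, with Dcn (1.20), Lum (0.73) and Fap (0.47) the largest log2 fold changes. Immune markers (11 of 11, Ptprc the most abundant, Cd79a at 0 in most tumors) summed to 214, 194 and 260 TPM with IgG1, 187, 218 and 149 TPM with anti-PD-1, 147, 267 and 316 TPM with DOX/IgG1, and 141, 222 and 183 TPM with DOX/anti-PD-1, with Cd3e (0.92), Cd8a (0.72) and Itgax (-0.52). Endothelial markers (5 of 5, Pecam1 the most abundant) summed to 101, 106 and 123 TPM with IgG1, 83.65, 83.1 and 87.1 TPM with anti-PD-1, 108, 118 and 67.8 TPM with DOX/IgG1, and 91.05, 132 and 51.8 TPM with DOX/anti-PD-1, with Cdh5 (-0.72), Kdr (0.29) and Emcn (-0.23). Myoepithelial markers (5 of 5, Acta2 the most abundant) summed to 363, 137 and 311 TPM with IgG1, 145, 247 and 232 TPM with anti-PD-1, 200.5, 512 and 758 TPM with DOX/IgG1, and 297, 367 and 452 TPM with DOX/anti-PD-1, with Acta2 (0.79), Myh11 (0.73) and Trp63 (0.45). Skeletal muscle markers (7 of 7, Acta1 the most abundant) summed to 149, 32.7 and 540 TPM with IgG1, 566, 51.3 and 25.1 TPM with anti-PD-1, 64.2, 153 and 191 TPM with DOX/IgG1, and 887, 0 and 158 TPM with DOX/anti-PD-1, all 7 being at 0 in DOX/anti-PD-1 replicate 2, with Tnnt3 (-1.20), Myh1 (-1.09) and Myh4 (0.60). Salivary gland markers (7 of 7, Amy1 the most abundant) summed to 6.41, 16.8 and 7.80 TPM with IgG1, 28.3, 5.40 and 23.5 TPM with anti-PD-1, 60.1, 101 and 120 TPM with DOX/IgG1, and 19.7, 16.0 and 23.3 TPM with DOX/anti-PD-1, and Bpifa2 was at 0 outside DOX/IgG1. Bpifa2 and Smr3a were at 0 in all IgG1 tumors and reached the minimum of 1 TPM in 3 tumors through the DOX/IgG1 tumors alone, so once tested they had to be higher there. Their calls between DOX/IgG1 and IgG1, and that of Bpifa2 in the interaction, are therefore given as a description, and counts and medians of the tested salivary genes are left out. The medians with doxorubicin over both antibodies were -0.21 (epithelial), 0.45 (myoepithelial), 0.92 (adipocyte), 0.27 (fibroblast), 0.17 (immune), 0.05 (endothelial) and -0.12 (muscle). At an unadjusted limma p below 0.05, 2 adipocyte genes and 1 fibroblast gene were higher, and 0 of the immune, endothelial, muscle and myoepithelial genes passed, with none called by limma over both antibodies, where 8.82% of all genes were higher and 3.16% lower at that limit. By arm, 7 of 8 adipocyte markers were higher at that limit beside anti-PD-1 (median 1.43), where 1 of the 10 p53 targets was, and 0 of 8 beside IgG1 (median 0.44), where 6 of the 10 were. Of all genes, 6.30% were higher and 2.33% lower beside anti-PD-1, and 5.03% and 2.70% beside IgG1. Beside anti-PD-1, 4 of 8 fibroblast, 2 of 5 myoepithelial and 1 of 8 epithelial markers were also higher and 1 of 9 immune markers lower. Beside IgG1, the fibroblast marker Col1a1 (-1.20), the epithelial markers Epcam (-0.87) and Cldn7 (-0.75) and the endothelial marker Cdh5 were lower. The part of these tissues in the values of the p53 target genes was not tested.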

How the data were processed

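RNA from 12 whole PyMT tumors was sequenced from stranded libraries of total RNA. The authors trimmed the reads with skewer, mapped them with STAR to mm10 and quantified genes with RSEM (versions not given), and deposited log2(TPM + 1) for 21960 genes with decimal commas, so no read counts or depths are known. TPM of the listed genes summed to 609418 to 725506 per tumor. The members and lists were chosen with earlier results of these data known. Genes at 1 TPM or more in at least 3 tumors of a comparison were tested with limma 3.58.1 (R 4.3.3), with a trended prior variance (eBayes), two-sided, and p adjusted by Benjamini-Hochberg over all tested genes. Single genes also had exact permutation tests. Alternatives were another pseudocount, no filter, rescaling by the median of ratios, no trend, a stricter adjusted p, a replicate block, all 12 tumors in one fit and leaving out each tumor. Called genes outside the lists were named after their values were seen. Named from the lists were called genes, up to 3 genes per list with the largest change with doxorubicin, Trp53, Mdm4, Ppm1d and Cdkn2a, and the 3 genes most like Cdkn1a, Mdm2 and Ccng1. The steps were tested on simulated data. Gene positions came from GENCODE vM21 and promoters from RefSeq (GRCm38.p6). Cop1 (listed as Rfwd2) and Ptprv were not found by symbol. For 1 listed immune marker, values are not reported here.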

Additional observations from a re-analysis of the deposited data

How the results depend on the processing

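With limma, none of the 10 genes was called in any comparison (numbers at an unadjusted p below 0.05 follow) under another pseudocount (0.1 TPM), no filter, rescaling by the median of ratios, no trend, an adjusted p below 0.05 with no fold limit, the replicate block or, for the 4 pairwise comparisons, all 12 tumors in one fit. Causes of the changes below were not tested.

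Of all genes, DOX/IgG1 against IgG1 called 13 with no trend and 0 to 122 with 1 tumor left out, the highest without DOX/IgG1 replicate 1. DOX over both antibodies called 14 with rescaling (3 higher, 11 lower), 0 with no trend and 0 at the stricter adjusted p, and 0 to 212 with 1 tumor left out. The interaction called 3 with no filter or no trend, 0 with the other pseudocount, rescaling or the stricter adjusted p, and 0 to 1 with 1 left out. DOX/anti-PD-1 against anti-PD-1 called 3 with no trend and 0 to 4 with 1 left out, the doxorubicin arms called 3 against each other with rescaling or no trend, 2 with all 12 tumors and 0 to 4 with 1 left out, and anti-PD-1 against IgG1 called 1 with no trend and 0 to 4 with 1 left out.

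Of the 10 genes, those with an unadjusted limma p below 0.05 numbered 4 to 6 with 1 left out in DOX/IgG1 against IgG1, 2 with rescaling or all 12 tumors and 1 to 2 with 1 left out in DOX/anti-PD-1 against anti-PD-1, 1 to 4 between the doxorubicin arms, 2 to 5 over both antibodies, 2 to 3 in the interaction, and 0 with no trend or all 12 tumors and 0 to 1 with 1 left out in anti-PD-1 against IgG1. Of all genes with 1 left out, 3.34% to 9.1% were higher in DOX/IgG1 against IgG1 and 6.87% to 11.3% over both antibodies. Lower were 2.12% to 5.03% between the doxorubicin arms and 1.85% to 3.88% in the interaction. In DOX/anti-PD-1 against anti-PD-1, 4.16% to 7.32% were higher and 1.38% to 4.04% lower. In anti-PD-1 against IgG1 it was 1.1% to 2.22% and 2.01% to 4.94%. With 1 left out, genes without overlap numbered 6 to 8 in DOX/IgG1 against IgG1 (12.5% to 22.2% of all genes were higher), 1 to 3 in DOX/anti-PD-1 against anti-PD-1 (15.2% to 21.4% higher) and 1 to 6 between the doxorubicin arms (9.21% to 15.7% lower). With every tumor these shares were 9.31%, 11.1% and 5.95%. Over both antibodies 0 to 1 genes were called with 1 left out (Phlda3).

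The replicate numbers name no shared mouse, cage or day. Correlations of same-numbered tumors' deviations ranged from 0.0034 to 0.125 in DOX/IgG1 against IgG1, -0.0563 to 0.134 in DOX/anti-PD-1 against anti-PD-1, -0.0688 to 0.0911 between the doxorubicin arms and -0.0963 to -0.0145 in anti-PD-1 against IgG1, so the numbers were not taken as pairs. With the replicate block, DOX/IgG1 against IgG1 called 2 genes and 5 of the 10 genes had an unadjusted p below 0.05, all higher (5.51% of all genes were higher and 3.16% lower). DOX over both antibodies called 1 and the interaction 0, and 3 of the 10 genes had an unadjusted p below 0.05 in DOX/anti-PD-1 against anti-PD-1 (Cdkn1a and Phlda3 higher, 6.03% of all genes, and Trp53inp1 lower, 2.53%).

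Other fold changes that kept their sign but moved far with 1 left out were, between the doxorubicin arms, -0.72 to -0.0328 (Mdm2), -1.14 to -0.20 (Eda2r), -1.37 to -0.47 (Aen), -0.86 to -0.11 (Bax) and -0.72 to -0.0384 (Sesn2). In the interaction they were -1.50 to -0.39 (Cdkn1a), -0.81 to -0.10 (Mdm2), -1.15 to -0.20 (Eda2r), -1.33 to -0.43 (Aen) and -1.06 to -0.38 (Sesn2). In anti-PD-1 against IgG1 they were 0.0392 to 0.72 (Cdkn1a), 0.16 to 0.59 (Ccng1), -1.01 to -0.32 (Bax) and 0.12 to 0.47 (Sesn2). Over both antibodies they were 0.23 to 0.57 (Mdm2), 0.0837 to 0.50 (Aen) and 0.0931 to 0.47 (Bbc3).

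These fold changes of the 10 genes changed sign. Rescaling gave -0.0993 for Bax in DOX/IgG1 against IgG1 and -0.0365 for Trp53inp1 over both antibodies, as it moved the median of all genes from 0.12 to 0.01 in both. With 1 tumor left out, log2 fold changes ranged in DOX/IgG1 against IgG1 from -0.38 to 0.33 (Bax) and -3e-04 to 0.69 (Bbc3). In DOX/anti-PD-1 against anti-PD-1 they ranged from -0.27 to 0.34 (Ccng1), -0.51 to 0.22 (Aen), -0.0784 to 0.65 (Bbc3), -0.17 to 0.64 (Bax) and -0.17 to 0.50 (Mdm2). Between the doxorubicin arms they ranged from -0.58 to 0.30 (Phlda3), -0.55 to 0.26 (Bbc3) and -1.06 to 0.0491 (Cdkn1a). In anti-PD-1 against IgG1 they ranged from -0.25 to 0.28 (Mdm2), -0.41 to 0.39 (Eda2r), -0.34 to 0.22 (Bbc3) and -0.37 to 0.24 (Aen). Over both antibodies they ranged from -0.15 to 0.34 (Trp53inp1) and -0.0659 to 0.29 (Bax), and in the interaction from -0.40 to 0.42 (Bbc3), -0.19 to 0.64 (Bax) and -0.13 to 0.75 (Phlda3). TPM keep no depth, so counting error cannot be given.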
